A study of Mus musculus with 2 samples.

Results

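The nuclear genes of the mitochondrial respiratory chain were described by the openness of their promoters in mouse spleen. The members were the protein-coding nuclear genes whose symbols begin with Nduf followed by a, b, c, s or v, with Uqcr, with Cox and a digit from 4 to 8 or with Atp5, together with Cyc1 and Sdha to Sdhd. This rule took 95 gene records of the 21938 protein-coding genes in the GENCODE M21 annotation of mm10. They hold 94 symbols, because Atp5o has 2 records. By the known place of each product they fell into 7 classes, with 7 core subunits, 29 accessory subunits and 8 assembly factors of complex I, 4 genes of complex II, 9 of complex III, 20 of complex IV and 18 of complex V. Ndufa4 and Ndufa4l2 were placed in complex IV, where the Ndufa4 protein is now known to sit.

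Open chromatin was measured by DNase-seq, in which DNase I cuts accessible DNA in nuclei and the cut ends are sequenced. The single group was whole spleen of male B6CASTF1/J mice, an F1 cross, at 14 days of age, with no treatment given in the labels. The first replicate pooled material of 3 males, the second was taken from 1 male, and the labels list a single donor entry for them. Replicate 1 had 48286 peaks and replicate 2 had 28837 in the stricter of the 2 deposited peak lists, and footprints, short protected stretches inside open chromatin, numbered 191945 and 125693. The value of a gene was the signal of its best peak within 1000 bases of any of its start sites, as the authors give it for each peak, or 0 without a peak. The scale of this signal and the read depth are not stated, so members are set against all genes within each library and no counting interval is given. Where values are set across the libraries, or averaged over them, as in the order by mean signal, a difference in scale between the libraries is part of the value and of its SD. With 2 libraries of 1 group there was no contrast to test, and errors are the SD over the 2 libraries.

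The respiratory chain lies in the inner mitochondrial membrane. Complexes I and II pass electrons from NADH and succinate to ubiquinone, complex III passes them to cytochrome c, complex IV hands them to oxygen, and complex V, the ATP synthase, uses the resulting proton gradient to make ATP. Complexes I, III, IV and V join subunits from the nucleus with subunits made inside the mitochondrion, and several complex IV subunits exist as widely used and tissue-restricted isoforms encoded by separate genes. The transcription factors NRF1, GABP (an ETS factor, also called NRF2), YY1, SP1, CREB and the ERR family are known from work on promoters of these genes.

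The tissue label was checked against marker genes. Among B cell markers 5 of 6 had a promoter peak in both replicates, with Pax5 at 8.09 and 3.94 in replicates 1 and 2, and among erythroid markers 5 of 6, with the red cell factor genes Gata1 at 2.06 and 1.15 and Klf1 at 4.42 and 1.97. Alas2, the heme enzyme of red cells, had 0.839 in replicate 1 and no peak in replicate 2, and the highest of that list was the widely used transferrin receptor gene Tfrc at 20.8 and 11.0. Of 6 T cell markers, 6 macrophage markers and 6 spleen stroma markers, 2 each had a peak in both, and the stroma factors Tlx1 and Nkx2-5 had none in either. In bulk tissue, fewer cells of a type with open chromatin and less openness per cell cannot be told apart.

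Short stretches around motif matches show what the footprinted promoters look like. The first 9 stretches belong to genes of high signal, among those named by rule, that hold a motif inside a footprint in both replicates. Each gives 1 match with up to 20 bases either side, shortened where needed to hold no more than 30 exon bases, and is read from the mm10 reference 5′ to 3′ along the gene's strand. The capitals mark the match on either strand, and the position is that of the middle of the match from the nearest start site of the gene, negative upstream. The letters are those of the reference, and the CAST alleles of the F1 animals may differ there.
Ndufaf8, GC box, chr11:120098748-120098793, + strand, position -158: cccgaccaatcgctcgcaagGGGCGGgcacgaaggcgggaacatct
Ndufa7, YY1, chr17:33824625-33824654, + strand, position -15: ggAATATGGCgtccgctactcgcgttatcc
Cox6a1, ETS, chr5:115348952-115348994, - strand, position 10: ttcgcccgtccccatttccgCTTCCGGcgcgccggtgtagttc
Uqcrq, GC box, chr11:53430966-53431011, - strand, position -157: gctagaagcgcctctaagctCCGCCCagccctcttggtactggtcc
Atp5g1, YY1, chr11:96075904-96075951, - strand, position -257: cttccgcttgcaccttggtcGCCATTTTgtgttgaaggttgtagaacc
Ndufv3, GC box, chr17:31519956-31520001, + strand, position -137: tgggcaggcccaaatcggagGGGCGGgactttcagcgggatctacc
Uqcrfs1, CRE, chr13:30545333-30545365, - strand, position 21: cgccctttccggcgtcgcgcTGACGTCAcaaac
Atp5b, YY1, chr10:128083322-128083351, + strand, position 21: ccGCCATGTTgagtcttgtggggcgtgtgg
Ndufaf3, GC box, chr9:108567091-108567120, - strand, position -167: ggactgtcgctggaggcatgGGGCGGggtg

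The GC box, GGGCGG, is the marked motif in 4 of these 9 stretches, and the YY1 letters AANATGGC, where N is any base, are in 3. Each stretch shows 1 match of its gene, so these counts do not tell how common the motifs are. Cox6a1 and Atp5b, printed for other letters, also held a GC box in a footprint in both replicates. In Atp5b the YY1 match reads on the strand opposite to the gene, and in Ndufa7 along the gene. The 5 NRF1 stretches that follow were chosen after the values were seen, because NRF1 is the factor after which nuclear respiratory factors are named. They are the 5 genes of highest signal with the NRF1 letters GCGCATGCG inside a footprint in both replicates.
Ndufa8, NRF1, chr2:36049338-36049367, - strand, position 63: cgcttgcgcgtcgctggagaCGCATGCGCa
Ndufaf4, NRF1, chr4:24897950-24897998, + strand, position -109: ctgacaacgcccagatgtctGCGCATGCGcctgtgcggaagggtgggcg
Atp5g2, NRF1, chr15:102671079-102671108, - strand, position 43: cgactcgttggctccggccgCGCATGCGCa
Uqcrc1, NRF1, chr9:108936677-108936706, + strand, position -32: tGCGCATGCGcagcgcggctctacactgac
Ndufaf5, NRF1, chr2:140170642-140170678, + strand, position 17: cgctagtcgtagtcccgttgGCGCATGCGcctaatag

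Nearly the whole module was open. In both replicates 88 of the 95 members (92.6%) had a promoter peak, against 51.1% of all protein-coding genes. The same 88 members were found in each replicate by itself, where 56.7% of all genes had a peak in replicate 1 and 51.4% in replicate 2. All members of complexes II and III and all complex I genes of the 3 classes had a peak in both replicates. The exceptions were 6 of the 20 complex IV genes and 1 of the 18 complex V records.

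Peaks of the module were also strong for this tissue. The median signal of the 88 peaked members was 10.6 in replicate 1, with a range from 2.58 to 25.9, and 6.62 in replicate 2, with a range from 0.935 to 14.4. All peaked protein-coding genes had medians of 7.03 and 4.79, and 69 of the 88 members lay above that median in replicate 1 and 61 in replicate 2. The 78 mitochondrial ribosomal protein genes, all with a peak in both replicates, had medians of 8.32 and 5.11, and the 38 peaked of 40 proteasome subunit genes had medians of 10.6 and 6.41. The medians of the respiratory chain thus lay close to those of the proteasome genes, which are also used in nearly every cell.

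Signals were higher in replicate 1 for 87 of the 88 peaked members. The exception was Ndufa10, an accessory subunit of complex I, at 8.02 in replicate 1 and 8.47 in replicate 2. The median log2 ratio of replicate 1 to replicate 2 was 0.76 over the members and 0.70 over all genes with a peak in both. The members and genes at large thus differed between the libraries by close amounts.

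**Figure D1:**
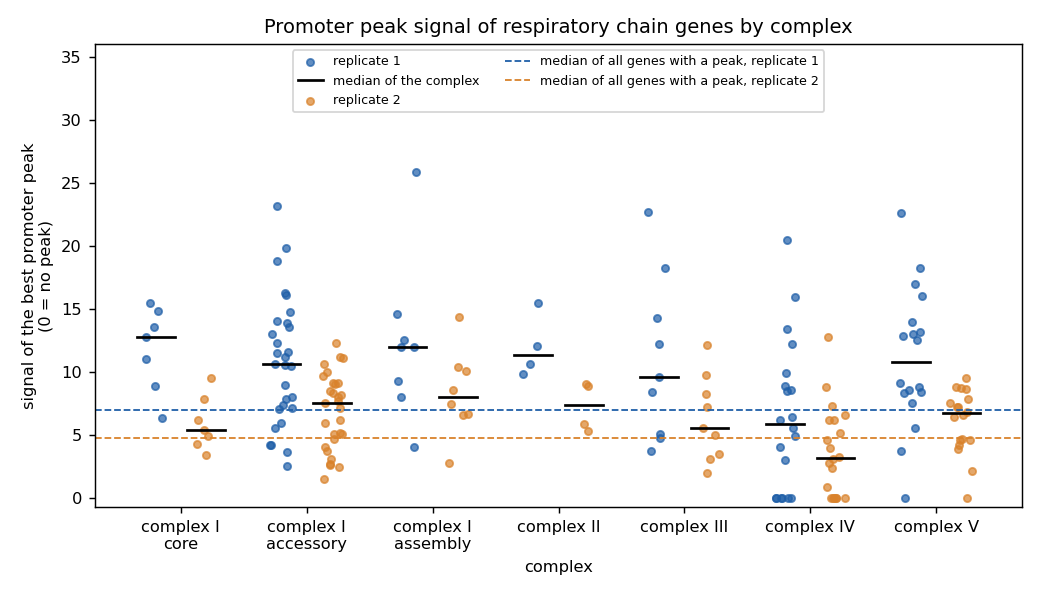
Each point is the best promoter peak signal of 1 gene in 1 replicate (vertical axis, the authors' signal, 0 where there was no peak), by complex (horizontal axis), with the class median, genes at 0 included, as a black line and the median of all peaked protein-coding genes dashed. Complex IV is the class with 6 genes at 0 in both replicates, while the complex I classes have no gene at 0.

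Complex I takes electrons from NADH and is the largest complex. Its 7 core subunits carry the redox centres and had median signals of 12.8 and 5.43 in replicates 1 and 2. Ndufs7, which holds an iron-sulfur cluster near the ubiquinone site, had 14.9 and 7.84. Ndufs3 had the lowest mean at 6.36 and 4.28, while Ndufs8, with 11.0 and 3.42, was lowest in replicate 2 alone.

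The 29 accessory subunits, which surround the core, had medians of 10.6 and 7.58. Ndufa7 had 23.2 and 12.3, and its peak at chr17:33824441-33824640 covers its start, with the ribosomal protein gene Rps28 starting nearby on the other strand. Ndufv3 had 19.9 and 11.1. Ndufc2 was the lowest accessory gene, at 2.58 and 1.54, although its peak held 6 footprints in each replicate. The spread inside this class was wider than the distance between the medians of the 7 classes over peaked genes, which ran from 8.57 to 12.8 in replicate 1 and from 4.93 to 8.02 in replicate 2.

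The 8 assembly factors, which help to build complex I and are not part of it, had medians of 12.0 and 8.02. Ndufaf8, a partner of Ndufaf5, had the highest signal of all members at 25.9 and 14.4, and its peak lies at the start of Tepsin, a gene on the other strand. Ndufaf3, which works with Ndufaf4 early in assembly, had 14.6 and 10.4. The lowest was Ndufaf1 at 4.07 and 2.80.

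Complex II is the succinate dehydrogenase of the citric acid cycle, and its 4 subunits are all encoded in the nucleus. The catalytic flavoprotein gene Sdha had 15.5 and 9.05 and the membrane anchor Sdhc had 12.1 and 8.92. Sdhd, the other anchor, had 10.7 and 5.90, and Sdhb, the iron-sulfur subunit, was lowest at 9.88 and 5.37. The 4 genes kept this order in both replicates, and the class had no gene of low signal. Sdhd has Timm8b, which encodes a chaperone of mitochondrial protein import, as its partner on the other strand.

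Among the 9 genes of complex III the medians were 9.58 and 5.61. Uqcrq, a small subunit, had 22.7 and 9.82, with its best peak 70 bases from its start and over the start of Gdf9. Uqcrfs1, which encodes the Rieske iron-sulfur protein, had 18.2 and 12.2, so these genes changed order between the replicates. Cyc1, which encodes cytochrome c1, had 4.82 and 3.12 and Uqcrb was lowest at 3.78 and 2.00. The core proteins Uqcrc1 and Uqcrc2 differed, at 12.3 and 7.23 for the first and 5.13 and 3.55 for the second.

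The 17 peaked records of complex V had medians of 12.5 and 6.83. Atp5g1, a gene for the c ring subunit, had 22.6 and 8.74, and Atp5b, the catalytic beta subunit, had 18.3 and 8.85. Atp5a1, which encodes the alpha subunit that pairs with beta in the same head, had only 5.57 and 4.23. The lowest was Atp5l, subunit g, at 3.78 and 2.20. The c subunit is made from 3 genes that give the same mature protein, and they stood in the order Atp5g1, Atp5g2 at 13.0 and 7.90, and Atp5g3 at 8.33 and 4.72 in both replicates. In replicate 2 Atp5g1 and Atp5g2 were close.

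The complex V record without a peak was the second one of Atp5o (ENSMUSG00000116933). It starts inside the other Atp5o gene (ENSMUSG00000022956), on chromosome 16, whose own promoter had 8.85 and 3.95. Atp5o encodes the stalk protein OSCP, and the record without a peak has 1 annotated start site.

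Most members without a peak were tissue isoforms of complex IV. Without a peak in either replicate were Cox4i2, Cox6a2, Cox7b2, Cox8b, Cox8c and Ndufa4l2, and none of the 7 records without a strict peak had a base with a listed false discovery rate under 0.05, or a footprint, within 1000 bases of a start in either replicate. Of all genes without a peak, 13.2% in replicate 1 and 13.9% in replicate 2 had such bases. The widely used partner had a peak in both replicates in every one of these pairs. The differences, in signal, were 16.6 ± 5.44 (SD, n = 2) for Cox6a1 less the heart and skeletal muscle form Cox6a2, and 7.54 ± 1.89 (SD, n = 2) for Cox4i1 less Cox4i2, a form known from lung and tied to oxygen supply.

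Cox8a had 13.4 in replicate 1 and 6.18 in replicate 2, with 0 for both the muscle and brown fat form Cox8b and the testis form Cox8c, a difference of 9.81 ± 5.12 (SD, n = 2). Cox7b, on the X chromosome, had 3.03 and 0.935 and its testis form Cox7b2 had 0 (difference 1.98 ± 1.48, SD, n = 2), a pair in which the widely used form is itself the lowest peak of complex IV. Ndufa4 had 8.52 and 4.67, and its hypoxia-induced relative Ndufa4l2 had 0 (difference 6.59 ± 2.72, SD, n = 2).

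Among the pairs 2 broke this pattern. Cox7a1, the heart, skeletal muscle and brown fat form, had a peak of 6.45 and 2.77 over its start, at chr7:30184021-30184240 in replicate 1, with 5 footprints in each replicate. Its widely used partner Cox7a2 had 12.2 and 6.64, a difference of 4.81 ± 1.34 (SD, n = 2). Cox6b2, the testis form, had 5.56 and 3.29 over its start at chr7:4753021-4753220, while the widely used Cox6b1 had 4.94 and 3.12. The difference, Cox6b1 less Cox6b2, was -0.40 ± 0.313 (SD, n = 2), at -0.621 in the first replicate and -0.179 in the second, so Cox6b2 was the higher one in both, by an amount close to the spread. Neither Cox7a1 nor Cox6b2 has another protein-coding start within 1000 bases of its peak.

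Marker genes of the tissues that use these isoforms mostly had no promoter peak. Of 10 skeletal and heart muscle markers, 2 had a peak in both replicates, Ckm at 2.79 and 2.97 and Myl2 at 0.739 and 1.17, and Acta1, Mb, Myh6 and Myh7 had none. Of 8 testis markers none had a peak in both, and Prm1 had 1.59 in replicate 1 alone. Of 5 brown fat markers only Ppara had one, with Ucp1 at 0, and of 5 lung markers only Napsa. Over all protein-coding genes 51.1% had a peak in both replicates. Of the 6 T cell, 6 macrophage and 6 spleen stroma markers, 2 each did. The part of other cell types in the Cox7a1 and Cox6b2 peaks was not tested.

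**Figure D2:**
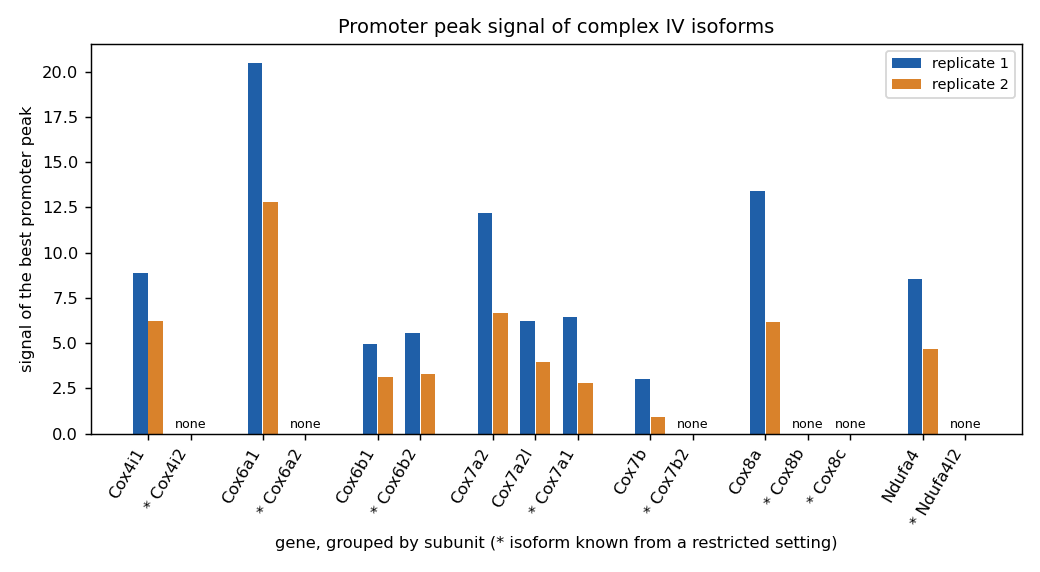
Bars give the best promoter peak signal (vertical axis, the authors' signal) of complex IV genes grouped by subunit (horizontal axis) in each replicate, with an asterisk at isoforms known from a restricted setting and the word none where neither replicate had a peak. Of the 8 marked genes, Cox6b2 at 5.56 and 3.29 and Cox7a1 at 6.45 and 2.77 have bars.

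The promoters of Cox8a and Cox8b also differ in sequence. The 120 bases before the RefSeq start of Cox8a and of Cox8b are given from the RefSeq table of build GRCm38.p6, chosen after the values were seen, with each CG pair in capitals. Cox8a has 9 CG pairs there and Cox8b has 1.
Cox8a, chr19:7217617-7217736, - strand: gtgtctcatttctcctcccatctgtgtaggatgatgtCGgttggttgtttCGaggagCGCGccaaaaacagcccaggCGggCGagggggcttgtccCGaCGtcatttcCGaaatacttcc
Cox8b, chr7:140900447-140900566, - strand: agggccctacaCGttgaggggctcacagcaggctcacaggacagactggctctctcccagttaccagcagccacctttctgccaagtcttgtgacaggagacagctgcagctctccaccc

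Over the whole promoter windows of that table, 250 bases before to 50 after the start, Cox8a had 19 CG pairs and Cox8b had 2. A promoter was found for 74 of the 94 member symbols, and the median was 19 CG pairs over their 79 promoters against 7 over all 32851 promoters. Cox7a1 had 7 and Cox6b2 had 10, below the module's median, as did Cox7b with 5. Cox7b2, without a peak, had 10, as many as Cox6b2 with one. Cox4i2, Cox6a2, Cox8c and Ndufa4l2, also without a peak, had no promoter there. Among the complex IV isoforms without a peak, the counts thus rest on Cox8b and Cox7b2 alone.

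The X-linked members were low. Cox7b, Ndufa1 and Ndufb11, the 3 members on the X chromosome, had a median of 3.68 in replicate 1 and 2.51 in replicate 2, against 11.0 and 6.64 for the 85 peaked members on autosomes. Ndufa1, a small subunit of the complex I membrane arm, had 3.68 and 2.51, and Ndufb11 had 4.26 and 2.63. Peaked X-linked genes at large had medians of 3.56 and 2.45, and peaked autosomal genes 7.18 and 4.92, and the animals were male. The 3 genes thus lay close to other X-linked genes.

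Many members share their promoter with a neighbour on the other strand. A protein-coding gene starting on the opposite strand within 1000 bases was present for 34 of the 95 members (35.8%) and for 11.0% of all genes. Among genes with a peak in both replicates the shares were 38.6% and 19.6%. Peaked members with such a partner had medians of 12.0 and 6.75 and those without 9.90 and 6.43, while all genes had 11.3 and 6.44 with a partner and 7.13 and 4.36 without. The gap between genes with and without a partner was smaller in the module than over all genes, which was not tested.

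The partners include genes of related function. Atp5j, which encodes coupling factor 6 of the ATP synthase, starts opposite Gabpa, the DNA-binding subunit of GABP, and both genes had the same best values, 8.41 in replicate 1 and 4.65 in replicate 2. Ndufs6 starts opposite Mrpl36, a mitochondrial ribosomal protein gene, and Ndufs1 opposite Eef1b2, a translation factor gene. For such pairs 1 peak counts for both genes and its signal cannot be split between them.

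For some members the best peak was not over an annotated start of the gene. The best peak covered a start for 81 of the 88 peaked members in replicate 1 (92.0%) and 78 in replicate 2 (88.6%), against 74.9% and 76.6% over all genes. The best peak of Ndufa11 lay 627 bases away at the start of Vmac, with 14.0 and 7.69, while a peak over its own start had 9.37 and 6.35. That of Uqcrh, the hinge protein of complex III, lay 250 bases away at the start of Lrrc41, with 14.3 and 8.25 against 6.04 and 2.78 over its own start. Both genes thus had a peak over their own start in both replicates as well. Uqcrq, Atp5g1 and Ndufb11 had no peak over their own start in either replicate. Their best peaks lay 70, 31 and 2 bases from a start in replicate 1 and 70, 51 and 62 in replicate 2.

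Atp5d, Cox7a2l and Ndufa13 had their best peaks at different sites in the replicates. For Ndufa13 the sites lay 643 bases from a start in replicate 1 and 778 in replicate 2, and over its own start there was no peak in replicate 1 and one of 0.943 in replicate 2. Its values of 16.1 and 9.69 therefore describe nearby open sites rather than the start of Ndufa13. Cox7a2l, which encodes a factor that joins complexes III and IV, had 6.22 over its start in replicate 1 and 3.96 at a site 171 bases away in replicate 2, where its start had 3.10. The delta subunit gene Atp5d had 12.8 and 7.24.

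Width and footprint content of the members' peaks were close to those of all best peaks. Median width was 200 bases in both replicates, against 210.5 and 200 over all genes. Each of the 88 best peaks held at least 1 footprint in both replicates, as did 98.9% and 99.2% of all best peaks. The median number was 4.5 in replicate 1 and 5 in replicate 2, against 4 in both over all genes. Of the 412 member footprints of replicate 1, 78.4% overlapped a footprint of replicate 2, and of the 407 of replicate 2, 84.3% overlapped one of replicate 1. Over all best peaks these shares were 68.5% and 81.1%. Median GC content was 62.4% and 63.1%, below the 65.6% and 66.3% of all best peaks, and the ratio of observed to expected CG pairs was 0.903 and 0.876 against 0.833 and 0.852.

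Motif letters were matched exactly on both strands in the best peaks, each distinct peak counted once. The YY1 letters AANATGGC were in 31.8% of member peaks in replicate 1 and 30.7% in replicate 2, against 8.46% and 9.41% of all best peaks. The NRF1 letters GCGCATGCG were in 11.4% and 9.09% against 4.01% and 4.37%. The ETS letters CCGGAAG, which GABP binds, were in 25% and 23.9% against 17.7% and 18.8%. The GC box GGGCGG, bound by SP1, was the reverse, in 48.9% and 47.7% of member peaks against 66.0% and 68.5%. A match is a description of the letters and not a bound site, and factors also bind variants that these letters miss.

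Inside footprints, widened by 5 bases, the member shares were lower for YY1 letters, ETS letters and GC boxes, and the same for NRF1 letters. YY1 letters lay in a footprint in 13.6% and 11.4% of member peaks, against 4.26% and 4.17% of all best peaks. NRF1 letters did so in 11.4% and 9.09% against 3.86% and 4.16%. ETS letters did so in 17.0% and 14.8% against 10.7% and 9.77%, and GC boxes in 44.3% and 42% against 55% and 55.8%. All NRF1 matches of the members fell in footprints, near the 96.5% and 95.5% over all genes. Of the 30 YY1 matches in replicate 1, 13 lay in a footprint (43.3%), and over all genes 49.7% did. In peaks that cover a start site, a restriction added after seeing the data, YY1 letters were in 29.6% and 30.8% of member peaks and in 9.83% and 10.9% of all.

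Other letters were rarer. The cAMP response element TGACGTCA, bound by CREB, was in 5 member peaks in replicate 1 and 6 in replicate 2 (5.68% and 6.82%, against 3.78% and 4.09%), and the shorter form TGACGCA in 7 in each (7.95% in both, against 3.68% and 3.79%). The ERR letters TNAAGGTCA were in the peaks of Atp5g3, Ndufb4 and Sdhd in both replicates (3.41% against 0.313% and 0.23%). None of these matches lay inside a footprint, while over all genes 4 of 35 did in replicate 1 and 2 of 23 in replicate 2. The BANP letters TCGCGAGA were in those of Atp5f1, Cox7b and Ndufa7, inside a footprint in both replicates (3.41% in both, close to the 2.32% and 2.53% of all best peaks). NFY letters CCAATCA were in 5.68% in both replicates against 10.3% and 10.2%, E-box letters CACGTG in 6.82% and 3.41% against 9.22% and 9.15%, and the SBS letters CTACAATTC and MEF2 letters TANNNATAG in at most 1 member peak.

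The letters seldom overlapped one another. An ETS match shared bases with a GC box in Ndufs3 alone, in both replicates. The NRF1 and BANP letters can match both strands at 1 place, which NRF1 did in 6 member peaks of replicate 1 and 5 of replicate 2, and BANP in 2 of each. NRF1, ETS or YY1 letters were in 56.8% of member peaks in replicate 1 and 53.4% in replicate 2, against 27.2% and 29.3% of all. NRF1 and ETS letters together were in 3 and 2 member peaks (3.41% and 2.27%, against 0.743% and 0.798% of all).

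**Figure D3:**
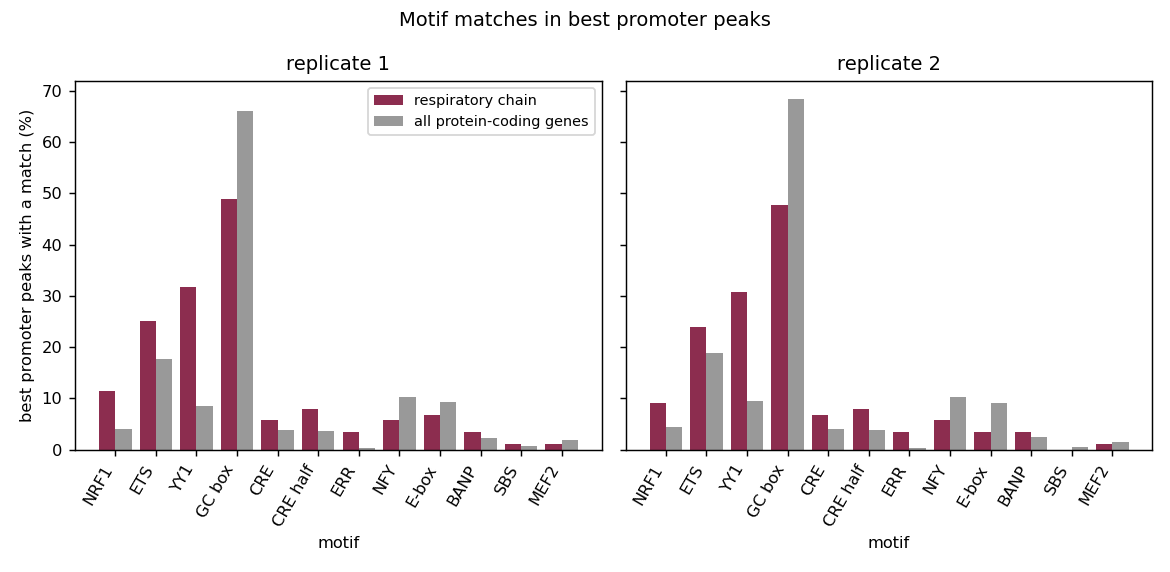
Bars give the percent of best promoter peaks with at least 1 exact match (vertical axis) for 12 motifs (horizontal axis), in respiratory chain genes and in all protein-coding genes, with a panel for each replicate. The YY1 bar of the members stands at 31.8% and 30.7% and that of all genes at 8.46% and 9.41%, while the GC box bar is lower in the members.

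Shares by class rest on few genes each, and differences between classes were not tested. YY1 letters were in 4 and 3 of the 7 core subunit peaks of complex I in replicates 1 and 2, in 11 of the 29 accessory subunit peaks in both, and in none of the 8 assembly factor peaks. They were in 1 and 2 of 4 complex II peaks, in 3 of 9 complex III peaks in both, in 2 of 14 complex IV peaks in both, and in 7 and 6 of 17 complex V peaks. The genes with YY1 letters in a footprint in both replicates included Atp5b, Atp5g1, Atp5o, Ndufa7, Ndufb11, Ndufb5, Uqcrb and Uqcrh. For NRF1 letters the genes were Atp5g2, Atp5k, Cox6c, Ndufa8, Ndufaf4, Ndufaf5, Uqcr11 and Uqcrc1, and for ETS letters Atp5a1, Atp5k, Atp5l, Cox6a1, Ndufaf1, Ndufb9, Ndufs1, Ndufs3 and Sdhb. Atp5k, subunit e of complex V, is the gene on both of the last lists. The comparison set of mitochondrial ribosomal protein genes held YY1 letters in 28.6% and 23.4% of its peaks and ETS letters in 36.4% and 39.0%. Its YY1 shares were thus near those of the respiratory chain and its ETS shares were higher. NRF1 letters were in 7.79% of its peaks and a GC box in 51.9%, in both replicates. Proteasome genes held YY1 letters in 15.8% and 18.4% of their peaks. In both replicates they held ETS letters in 42.1%, NRF1 letters in 2.63% and a GC box in 60.5%. These differences were not tested.

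Matches of YY1 letters gathered at the start site, in the members much as over all genes. Positions are taken from the nearest annotated start, and many genes have several, which draws positions towards a start. In replicate 1, 18 of the 30 YY1 matches lay within 30 bases of a start, and 20 of the 30 read along the gene strand. Over all genes 550 of 999 lay that near and 665 of 999 read along the gene, which are close shares. The median position was -1 in replicate 1 and 2 in replicate 2, and 0 and 1 over all genes. NRF1 matches had a median of 3.5 and 8 in the members, against -33 and -34 over all genes. In replicate 1, 9 of 16 lay at or downstream of the start in the members and 178 of 753 over all genes. In 6 of the 10 member peaks that hold them in replicate 1, the letters matched both strands at 1 place. Such a place counts once for each strand, over all genes as well. GC boxes lay upstream in the members as in all genes, with medians of -41.5 and -45 against -43 and -42.

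**Figure D4:**
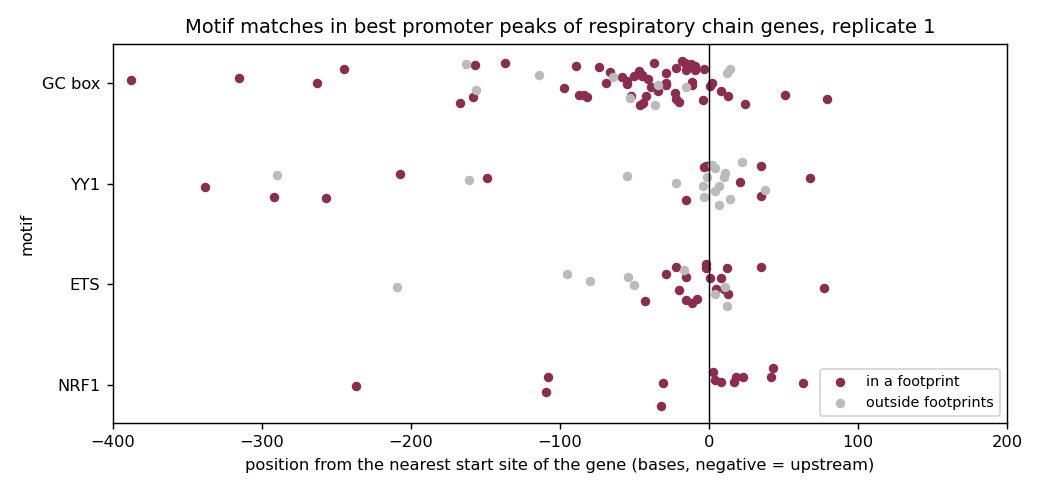
Each point is a motif match in the best promoter peak of a respiratory chain gene in replicate 1, by its position from the nearest start site (horizontal axis, in bases, negative upstream) and its motif (vertical axis), in dark red inside a footprint and in grey outside, with 4 matches beyond the axis. YY1 and ETS matches crowd around the start and most GC boxes lie upstream of it.

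Genes that serve the chain without matching the symbol rule were read the same way. For comparison, 51.1% of all protein-coding genes had a peak in both replicates, and peaked genes had medians of 7.03 and 4.79 in replicates 1 and 2. Of 40 assembly factor and carrier genes, 39 had a peak in both replicates, with medians over the peaked genes of 9.14 and 5.56. Cycs, the somatic cytochrome c gene, was highest at 26.2 and 15.1, and the complex II assembly factor gene Sdhaf1 had no peak. Of 19 regulators and mitochondrial genome factors, 16 had a peak in both, with Esrra at 37.9 and 19.2, Yy1 at 24.3 and 11.7, Nrf1 at 8.88 and 5.44, and Tfam, which packages mitochondrial DNA, at 13.9 and 9.62. The ones without were Esrrb, Esrrg and Ppargc1a, which encodes the coactivator PGC-1alpha, while the related Ppargc1b had 3.33 and 2.27 and Pprc1 had 9.64 and 4.86.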

How the data were processed

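Peaks, footprints and false discovery rates were deposited by the authors for each library on mm10, per the labels. For the aligner and the callers, name and version were not given in the sources used here. Each peak carries the authors' signal, which has no stated scale, and read depth is unknown. The deposited false discovery rates, a q-value type of unit, list bases under 0.05. The score column of the deposited footprints is 1 constant and was not used. Of the 2 deposited peak lists per library, the one with fewer bases was the main one.

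Start sites were those of all transcripts in GENCODE M21. Overlap meant at least 1 base. Sequence came from the mm10 reference, read with Python 3.11.15, numpy 2.4.6, pandas 2.3.3 and pysam 0.24.0. Best peak and motif steps were tested on simulated data. No test of the gene list was run. 1 named gene is not reported here. Values stand beside those of all protein-coding genes. The members and lists were chosen with earlier results of these data known. Named genes were, in each class, the 2 highest and the lowest peaked member by mean signal, members without a peak, isoforms, X-linked members and members with different sites. Genes named besides these were chosen after their values were seen. Nothing says that the replicates were separate animals beyond the numbers of males, so their spread may be technical in part.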

Additional observations from a re-analysis of the deposited data

How the results depend on the processing

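Larger peak lists, a 500-base window, equal numbers of strongest peaks, own starts of the gene records and each replicate by itself were tried, with 200 centred bases and footprints not widened for the sequence measures. No result changed direction, but for the motif letters the values below are shares of the members alone. Leaving out a replicate aside, 94 values that answer a comparison stayed within the spread between replicates, or for counts within 1.5 times, and 7 moved further. Many of the 94 had little or no room to move, so their number does not measure stability. With the larger peak lists every member kept the same best signal in both replicates. The equal number of strongest peaks was 28837, which is the whole list of replicate 2, so that library stayed as it was. With 2 libraries, a measured value from 1 of them always lies within 1 SD of their mean, so the 56 values without a replicate, counts aside, say nothing of stability. The share of member peaks with a footprint was 99.4% with the 500-base window. With 200 centred bases, ETS letters were in 22.7% and YY1 letters in 27.8% of member peaks. In footprints not widened they were in 10.8% and 9.09%. In peaks over a start site, added after seeing the data, they were in 26.4% and 30.2%. The cause of these shifts was not tested. Over all genes, peaks over a start site held ETS letters in 20.6% and 21.5% and YY1 letters in 9.83% and 10.9%, in replicates 1 and 2. For the centred bases and the footprints not widened, no shares over all genes are given. The comparison with all genes is therefore not shown under those settings. Read depth is unknown, so a promoter without a peak is one where none was detectable. No paired analysis was possible because the series holds 1 group.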
